A study of Malus domestica with 34 samples.

Results

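The 6 genes described here belong to the anthocyanin pathway of apple (Malus domestica). They are the genes of 5 enzymes and of a regulator: chalcone synthase (CHS, MD04G1003300), flavanone 3-hydroxylase (F3H, MD02G1132200), dihydroflavonol reductase (DFR, MD15G1024100), anthocyanidin synthase (ANS, MD03G1001100), flavonoid glucosyltransferase (UFGT, MD01G1234400) and the transcription factor MdMYB10 (MD09G1278600). They were taken by identifier, with no threshold on their values, as 6 of the 52311 identifiers in the count table, and all 6 were found. The names came with the identifiers: the table itself gives no names, and none of its identifiers (0 matches) is in the RefSeq gene table used here, so position, copy number and sequence are not described. Several of these enzymes, CHS and DFR among them, belong to gene families, and how reads shared by near-identical copies were divided rests on the authors' quantification, so the values of single copies are uncertain to that extent. Leaf and root identity could not be checked with marker genes for want of names.

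Leaf and root RNA came from greenhouse seedlings raised from seed of GDDH18, a doubled haploid line of 'Golden Delicious'. Drought plants went through repeated cycles of 3 weeks at 45% of field capacity and 3 weeks of rewatering, starting at 12 weeks of age, and well-watered plants were held near 80%. There were 3 samplings of each regime: at the end of the first drought, at the end of the third, and a year later, once a winter had passed but with no further drought. The 12 groups of tissue, regime and sampling held 3 libraries each, except the drought roots of the next year (sowing blocks 1 and 3) and the well-watered roots of the next year (blocks 2 and 3), with 2 each. The replicate number marks 1 of 3 sowing blocks, sown a week apart, so each library of a group is a sowing of its own, and p-values measure the spread within groups, between sowings. Comparisons averaged over both regimes count the drought and the well-watered library of a sowing as independent. Where these 2 resemble each other, such p-values can come out too small. Leaf and root libraries of a sowing are taken as independent too. Where they shift together, p-values of leaf against root can instead come out too large. All plants shared the line and the greenhouse, and how many plants went into a library is not given in the sources used here.

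Anthocyanins are red to purple flavonoid pigments. CHS makes the chalcone with which flavonoid synthesis begins, F3H turns flavanones into dihydroflavonols, DFR and ANS convert these step by step into the coloured anthocyanidins, and UFGT adds the sugar that makes them stable. MdMYB10 is a MYB transcription factor best known in apple for switching on these genes in red fruit skin and red flesh. Steps of this pathway also feed other flavonoids, such as flavonols and the flavan-3-ols of tannins, so transcripts of these enzymes, ANS included, are not a measure of pigment alone.

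Libraries held between 25974815 and 68239819 counts, 18 of them from leaf and 16 from root. Levels are CPM, counts scaled to a library total of 1000000. They are compared between samples and not between genes, because transcript lengths were not used. Log2 differences come from edgeR with TMM scaling, which sets the bulk of genes to no change. Its factors over all 34 libraries ran from 0.74 to 1.09 in leaf and from 0.97 to 1.31 in root. Fits within 1 organ used factors recalculated over the libraries of that organ. Scaling by library totals instead moves the median of all genes in leaf against root to -0.63 at the first sampling, -0.16 at the third and -0.40 in the next year, where with TMM it is -0.11 at the first sampling and -0.02 at both others, and the third minus the first sampling of this contrast moves to 0.40. Within leaf it moves that median to 0.20 for the third against the first sampling of well-watered plants, to 0.29 for the same step in drought plants and to -0.28 for the next year against the third sampling, while between the regimes it moves to 0.11 for leaves of the third sampling, 0.12 for roots of the first and -0.17 for roots of the next year. Each log2 difference from edgeR below is therefore a difference relative to the bulk of genes. Differences within or between sowing blocks are instead of log2 CPM by library totals, and small ones can turn with TMM. In whole organs, fewer cells of a type and less RNA per cell cannot be told apart.

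The 5 enzyme genes were well covered in every library, with at least 497 counts each. Together they took between 0.0425% and 0.418% of the counts in leaf libraries, with a median of 0.162%, and between 0.0659% and 0.226% in root libraries, with a median of 0.135%. The early enzyme gene CHS averaged 651 ± 126 CPM in drought leaves and 1020.5 ± 833 CPM in well-watered leaves at the first sampling (SD, n = 3 each, as for all leaf groups). At the third sampling it averaged 460.4 ± 307 CPM in drought leaves and 422 ± 251 CPM in well-watered leaves, and in the next year 679.9 ± 256 CPM in drought leaves and 638 ± 296 CPM in well-watered leaves. In roots it averaged 299 ± 60.5 CPM in drought and 255 ± 46.1 CPM in well-watered plants at the first sampling (n = 3 each), 281 ± 135 CPM in drought and 305 ± 170.0 CPM in well-watered plants at the third (n = 3 each), and 612 ± 71.6 CPM in drought and 477 ± 176 CPM in well-watered plants in the next year (n = 2 each). By library totals CHS was on average highest in well-watered leaves at the first sampling, followed by the other next-year and first-sampling leaf groups, the next-year roots, the leaves of the third sampling and last the roots of the first sampling and of the third. With TMM the well-watered roots of the next year stood below the leaves of the third sampling.

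The group means of F3H, the other early enzyme gene, did not separate the organs. It averaged 465 ± 104 CPM in drought leaves and 609.5 ± 298 CPM in well-watered leaves at the first sampling, 280.4 ± 179 CPM in drought and 275 ± 177 CPM in well-watered leaves at the third, and 366 ± 33.9 CPM in drought and 386 ± 98.6 CPM in well-watered leaves in the next year. In roots it averaged 402 ± 57.5 CPM in drought and 384 ± 48.6 CPM in well-watered plants at the first sampling, 447 ± 171 CPM in drought and 527 ± 254 CPM in well-watered plants at the third, and 584 ± 34.3 CPM in drought and 466 ± 131 CPM in well-watered plants in the next year (n = 2 each). Its highest mean was in well-watered leaves at the first sampling, and its lowest was in leaves at the third, well-watered ones by library totals and drought ones by TMM.

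For the late enzyme genes, the order of DFR by organ depended on the scaling and that of ANS did not. In CPM of library totals DFR had its 6 highest group means in the 6 root groups, led by the drought roots of the next year at 752 ± 33.3 CPM (n = 2), and its lowest in the well-watered leaves of the third sampling at 184 ± 75.3 CPM. With TMM-scaled CPM the first-sampling leaves, at 482 in drought and 531 in well-watered plants, stood above the first-sampling roots, at 377 in drought and 389 in well-watered plants. With either scaling, ANS had its 6 highest group means in the 6 leaf groups, from 239 ± 121 CPM in well-watered leaves of the third sampling up to 447 ± 192 CPM in well-watered leaves of the first sampling, and its root groups ran from 58.5 ± 2.10 CPM (well-watered, first sampling, n = 3) to 122 ± 17.5 CPM (drought, next year, n = 2). The group means of UFGT, whose enzyme adds the sugar, ran from 38.5 ± 15.2 CPM in drought roots of the third sampling to 95.002 ± 26.6 CPM in well-watered leaves of the first. For each of the 5 enzyme genes, the libraries of neighbouring groups in the order of means overlapped at 11 of 11 steps, so no step in these orders exceeds the spread between libraries.

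**Figure D1:**
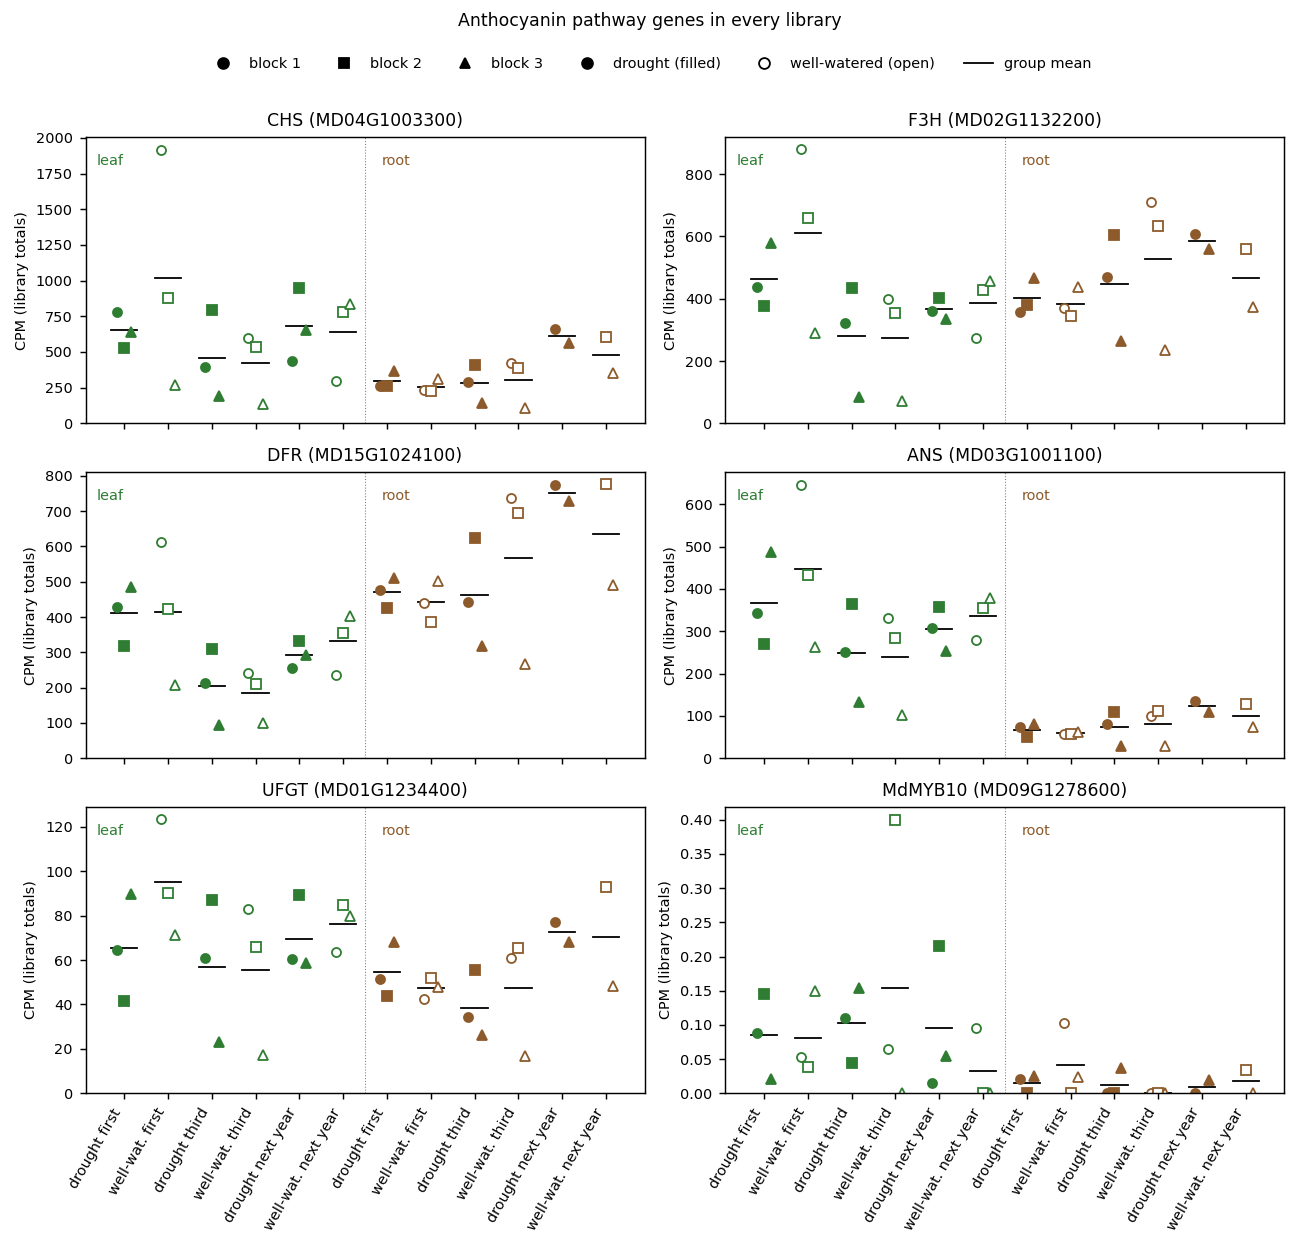
Level of each gene in every library, in CPM (vertical axis, a separate scale for each gene) in the 12 groups (horizontal axis); filled symbols are drought, open symbols well-watered, the shape gives the sowing block and the bar the group mean. ANS is higher in leaf than in root, the block 3 libraries are the lowest of the third sampling for the 5 enzyme genes, and MdMYB10 stays under 0.4 CPM.

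MdMYB10 transcripts were close to absent in both organs. Over the 18 leaf libraries 60 counts were assigned to the gene, which is 0.0792 CPM (95% Poisson interval 0.0604 to 0.102, for counting error only), and over the 16 root libraries 12 counts, which is 0.0173 CPM (0.00894 to 0.0302). In leaf, 3 libraries had no count, and in root 9 of 16. A count of 0 in a library allows up to 3 counts. The highest library was the well-watered leaf of block 2 at the third sampling, with 12 counts or 0.399 CPM, and without it the other 17 leaf libraries held 48 counts, or 0.0659 CPM.

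Between the regimes, MdMYB10 had 3, 6 and 1 counts in the drought leaves of blocks 1, 2 and 3 at the first sampling, against 2, 2 and 5 in the well-watered leaves. At the third sampling it had 4, 2 and 4 counts in drought leaves, against 3, 12 and 0 in well-watered leaves, and in the next year 1, 7 and 2 in drought leaves, against 6, 0 and 0 in well-watered leaves. The regimes overlapped at each sampling. At levels this low no drought difference was detectable. The gene fell below the count filter of edgeR in each fit, so 5 of the 6 genes were tested in the comparisons that follow.

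The first question of the design is what a first drought does. Of the 5 enzyme genes, 0 were called in leaves by edgeR's quasi-likelihood test (Benjamini-Hochberg adjusted p under 0.05), 0 had an unadjusted p under 0.05 and 0 were called with DESeq2, while 11.8% of the 32307 leaf genes tested were called in this comparison, a share that rests on 3812 genes and on 1461 without the well-watered leaf of block 1. CHS had 781, 530.2 and 641 CPM in the drought leaves of blocks 1, 2 and 3, against 1916, 876 and 269 CPM in the well-watered leaves of these blocks. The drought leaves lay within 1.47-fold of each other, while the well-watered leaves ranged 7.12-fold and reached both above and below them. The log2 difference was -0.76 (SE 0.70, 95% interval -2.26 to 0.74, edgeR adjusted p = 0.504).

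The regimes of the other 4 enzyme genes overlapped at the first sampling as well. F3H had 437, 377 and 579 CPM in the drought leaves of blocks 1, 2 and 3, against 879, 660.4 and 289 CPM in the well-watered leaves. DFR had 428, 318 and 485 CPM in drought leaves, against 613, 424 and 208 CPM in well-watered leaves. For both genes the well-watered leaf of block 1 was the highest of the 6 libraries and that of block 3 the lowest. ANS had 344, 271 and 487 CPM in drought leaves, against 645, 433 and 262 CPM in well-watered leaves. UFGT had 64.4, 41.5 and 89.7 CPM in drought leaves, against 124, 90.1 and 71.2 CPM in well-watered leaves. The regimes overlapped for 5 of 5 enzyme genes, where 28.1% of all genes tested did not overlap. Log2 differences were -0.49 (SE 0.60) for F3H, -0.11 (SE 0.46) for DFR, -0.38 (SE 0.45) for ANS and -0.62 (SE 0.51) for UFGT, with a median over the 5 enzyme genes of -0.49 beside 0.01 over all genes tested, and the smallest edgeR adjusted p of the 5 was 0.438, for UFGT.

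Taken within the sowing blocks, drought against well-watered leaves did not give 1 direction. In block 1 the 5 enzyme genes were all lower in the drought leaf, with log2 differences from -1.29 to -0.52. In block 2 they were again all lower, from -1.12 to -0.41. In block 3 they were all higher in the drought leaf, from 0.33 to 1.25. The pooled direction thus held in blocks 1 and 2 and was the opposite in block 3, with 1 library of each regime in a block.

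In leaves of the third sampling and of the next year no enzyme gene was called between the regimes. After the third drought edgeR called 0% of the 32307 genes tested, with 727 at an unadjusted p under 0.05, and DESeq2 called 0. In the next year edgeR called 0%, with 356 at an unadjusted p under 0.05, and DESeq2 called 1. Of the 5 enzyme genes 0 were in any of these sets, and their regimes overlapped for 5 of 5 at both samplings, where 3.54% of genes at the third and 7.29% in the next year did not overlap. Log2 differences of the enzyme genes ran from -0.14 to 0.00 after the third drought and from -0.17 to 0.09 in the next year, and the 95% interval for CHS was -1.54 to 1.45 after the third drought and -1.40 to 1.59 in the next year, so differences within these bounds were not detectable here. By library totals, after the third drought 0, 5 and 4 of 5 enzyme genes were higher in the drought leaf of blocks 1, 2 and 3. In the next year 4, 3 and 0 were. With TMM over all libraries F3H turned in block 2 after the third drought, and ANS and UFGT turned in block 2 of the next year. The drought effect at the third sampling minus that at the first was also not called for any enzyme gene (0 of 5 by edgeR, by DESeq2 or at an unadjusted p under 0.05, where edgeR called 5.76% of genes tested), the log2 values running from 0.11 for DFR to 0.72 for CHS (SE 0.99, edgeR adjusted p = 0.706).

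In roots, the drought comparisons called 0% of the 33541 genes tested at each of the samplings by edgeR, with 340 genes at the first sampling, 936 at the third and 739 in the next year at an unadjusted p under 0.05. DESeq2 called 0 genes at the first sampling, 1 at the third and 2 in the next year. Of the 5 enzyme genes, 0 were called by either tool and 0 reached an unadjusted p under 0.05 with edgeR. After the first drought CHS had 263, 264 and 368 CPM in the drought roots of blocks 1, 2 and 3, against 231, 226 and 309 CPM in the well-watered roots. By library totals each drought root was above the well-watered root of its own block, yet the regimes overlapped. In block 1 the TMM factors over all 34 libraries were 1.31 for the drought and 1.05 for the well-watered root. With them the order of CHS in that block turned. The edgeR log2 difference was 0.10 (SE 0.46, edgeR adjusted p = 1). The log2 differences of the 5 enzyme genes ran from -0.07 to 0.10 after the first drought and from -0.31 to -0.11 after the third. The regimes overlapped for 5 of 5 at both samplings, where 7.92% of genes at the first and 6.44% at the third did not overlap. In the next year the estimates were all above 0, from 0.22 for UFGT to 0.53 for CHS (SE 0.56), with 2 libraries per regime. By library totals F3H alone had separate regimes there, at 608 and 559.8 CPM in drought against 559 and 373 CPM in well-watered roots. Of all genes tested, 33.2% were as separate. With TMM over all libraries the regimes of CHS, DFR and ANS did not overlap there either. The share of all genes was not counted with that scaling. Block 3, the 1 block with both regimes in the next year, had all 5 enzyme genes higher in the drought root, by 0.50 to 0.67 on the log2 scale. By library totals, 4, 3 and 5 of 5 enzyme genes were higher in the drought root of blocks 1, 2 and 3 after the first drought. After the third, 0, 1 and 4 were. With TMM over all libraries only ANS stayed higher in block 1 after the first drought, and DFR turned in block 3. After the third, ANS turned in block 2. The first drought effect in leaf minus that in root was called for 0 of 5 enzyme genes by edgeR, by DESeq2 or at an unadjusted p under 0.05, where edgeR called 0.157% of 35665 genes tested, and for CHS it was -0.89 (SE 0.89, edgeR adjusted p = 0.781).

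**Figure D2:**
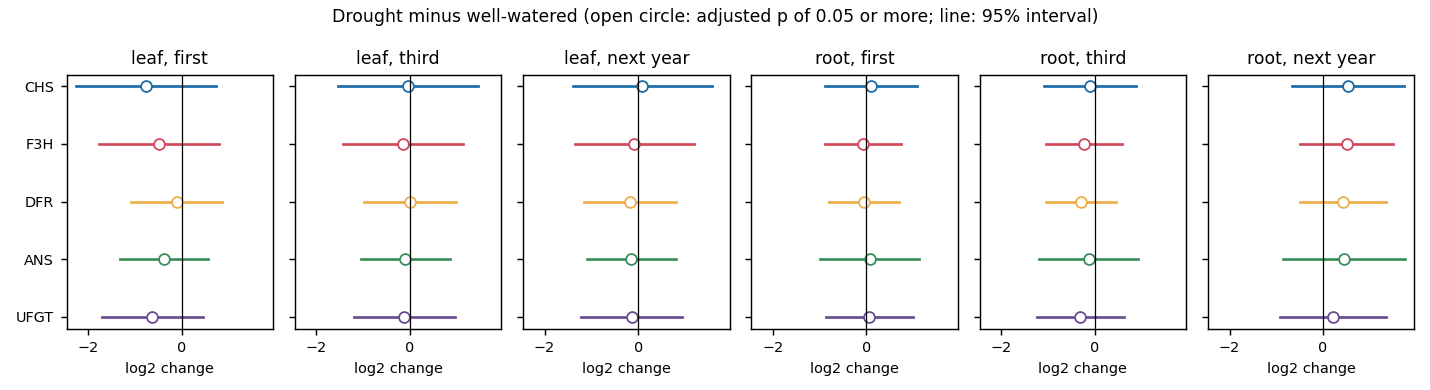
Log2 difference of drought over well-watered plants (horizontal axis) for the 5 enzyme genes (rows) in leaf and root at each sampling; circles are edgeR estimates, open because each adjusted p was 0.05 or more, and lines are 95% intervals. Every interval crosses 0, and the estimates lie between -0.76 (CHS, leaf, first sampling) and 0.53 (CHS, root, next year).

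Between the first and the third samplings the leaf estimates of the 5 enzyme genes were all below 0 without passing the threshold. DFR alone was called higher in leaves of the next year than at the third sampling, a call lost in 11 of 20 alternatives. In well-watered leaves the third sampling lay below the first by log2 values of -1.51 for CHS (SE 0.72), -1.35 for F3H (SE 0.61), -1.39 for DFR (SE 0.47), -1.12 for ANS (SE 0.45) and -0.98 for UFGT (SE 0.51), with a median over the 5 of -1.35 beside 0.00 over all genes. By edgeR 0 of 5 passed the adjusted threshold, where 15.1% of genes tested did, although 3 had an unadjusted p under 0.05 and DFR came nearest with an adjusted p of 0.0562. DFR was called with DESeq2 (adjusted p = 0.0205), and without the well-watered leaf of block 3 at the first sampling edgeR called DFR (-1.75, adjusted p = 0.0154) and ANS (-1.43, adjusted p = 0.0399). Without the well-watered leaf of block 1 at the first sampling the estimates shrank instead, to -0.58 for CHS (adjusted p = 0.646), -0.92 for DFR (adjusted p = 0.251) and -0.67 for ANS (adjusted p = 0.392). Without the well-watered leaf of block 3 at the third sampling they were -0.89 for F3H and -0.54 for UFGT, and much the same without both block 3 leaves. Of all edgeR calls in this comparison 53.8% were higher at the third sampling with TMM and 86.3% with library totals.

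In drought leaves the third sampling was also below the first in each of the 5 estimates. DFR had 213, 309.8 and 93.01 CPM in the drought leaves of blocks 1, 2 and 3 at the third sampling, against 428, 318 and 485 CPM at the first. The highest drought leaf of the third sampling lay just under the lowest of the first. How many of all genes were as separate was not counted, so this does not set DFR apart. The log2 difference was -1.28 (SE 0.47, edgeR adjusted p = 0.0724, DESeq2 adjusted p = 0.0288). The other 4 enzyme genes ran from -1.01 for F3H to -0.47 for UFGT, so that 0 of 5 were called by edgeR, 1 had an unadjusted p under 0.05 and 16.6% of genes tested were called. Without the drought leaf of block 3 at the third sampling these 4 shrank to -0.58 for F3H, -0.54 for ANS, -0.43 for CHS and -0.094 for UFGT (adjusted p = 0.930), and without that of block 2 CHS was -1.45 and UFGT -0.92. Of all calls here 51.8% were higher with TMM and 84.7% with library totals. Comparisons that follow one another in time share the libraries of the sampling between them.

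In the next year DFR, the reductase at the branch to coloured anthocyanidins and colourless flavan-3-ols, was called higher in leaves than at the third sampling, but the call was not stable. It had 236 to 402 CPM over the 6 leaf libraries of the next year (median 312), against 93.01 to 309.8 CPM over the 6 of the third sampling (median 212), and the samplings overlapped. The log2 difference over both regimes was 0.90 (SE 0.33, edgeR adjusted p = 0.0408), and DFR was the 1 of 5 enzyme genes called, where 18.1% of genes tested were called higher and 39.1% in either direction. A share of 1 in 5 is close to that of all genes called higher. The other 4 were higher by log2 values from 0.58 for UFGT to 0.79 for CHS and were not called. The DFR call was lost with library totals (0.68, adjusted p = 0.0850), with no count filter (adjusted p = 0.0519), with the block 3 libraries of the third sampling left out (0.57, adjusted p = 0.130) and without any 1 of 8 single libraries (0.73 to 0.95, adjusted p between 0.0530 and 0.0845). These 8 were both regimes of blocks 1 and 3 at the third sampling and of blocks 2 and 3 in the next year. Library totals also moved the share of higher genes among all calls to 18.8%, against 46.3% with TMM.

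In root, no difference between samplings passed the test for an enzyme gene. For the third against the first sampling, 0 of 5 were called, 0 had an unadjusted p under 0.05 and 0 were called with DESeq2, and 0.00894% of genes tested were called by edgeR. The log2 differences ran from -0.14 for UFGT to 0.40 for F3H (SE 0.27, edgeR adjusted p = 0.533). For the next year against the third sampling, 0 of 5 were called by edgeR and by DESeq2, 2.4% of genes tested were called by edgeR, and CHS (0.92, SE 0.36, adjusted p = 0.178) and UFGT (0.78, SE 0.34, adjusted p = 0.224) had an unadjusted p under 0.05.

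ANS, which makes the coloured anthocyanidins, was higher in leaf than in root at each sampling, and DFR was lower in leaf than in root at the third sampling and in the next year. At the first sampling ANS had 262 to 645 CPM over 6 leaf libraries (median 388), against 49.4 to 80.9 CPM over 6 root libraries (median 59.4), and the organs did not overlap, as for 50.6% of all genes tested. The log2 difference was 3.23 (SE 0.38, edgeR adjusted p = 3.49e-08), or 9.36-fold. CHS had 269 to 1916 CPM in leaf (median 711), against 226 to 368 CPM in root (median 264), a log2 difference of 2.13 (SE 0.46, edgeR adjusted p = 0.000274) between organs that overlapped. In all, 4 of 5 enzyme genes were called higher in leaf, where 30.3% of genes tested were called higher and 65.5% in either direction. The other 2 called were UFGT (1.16, SE 0.35, edgeR adjusted p = 0.00571) and F3H (0.98, SE 0.38, edgeR adjusted p = 0.0271). Both of these were lost with library totals (0.63, adjusted p = 0.0966 for UFGT and 0.44, adjusted p = 0.273 for F3H), where ANS (2.69) and CHS (1.56) were still called. Without any 1 of 4 libraries the F3H call was lost too (0.76 to 0.93, adjusted p between 0.0518 and 0.0944), these being the drought leaf of block 3, the well-watered leaf of block 1, the drought root of block 1 and the well-watered root of block 2. DFR was not called, and its direction turned with the scaling, at 0.40 with TMM and -0.15 with library totals, where the median gene stood at -0.63.

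At the third sampling ANS had 101 to 364 CPM in leaf (median 268), against 28.2 to 111 CPM in root (median 90.5), and the organs overlapped because the well-watered leaf of block 3 lay below the highest roots. The log2 difference was 1.82 (SE 0.36, edgeR adjusted p = 7.3e-05). DFR had 93.01 to 309.8 CPM in leaf (median 212), against 268 to 737 CPM in root (median 532), a log2 difference of -1.24 (SE 0.31, edgeR adjusted p = 0.00098), and it stayed called with library totals (-1.39). The organs overlapped for 5 of 5 enzyme genes, where 44.7% of all genes tested did not. ANS was thus 1 of 5 called higher, where 33.2% of genes tested were, and DFR 1 of 5 called lower, where 35.1% were, with 68.3% called in either direction. CHS (0.75), UFGT (0.55) and F3H (-0.64) were not called, and UFGT was called without the block 3 libraries of this sampling (0.64, adjusted p = 0.0252) or without the well-watered leaf of block 3 alone (0.77, adjusted p = 0.0368).

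In the next year ANS had 254 to 377 CPM over 6 leaf libraries (median 331), against 73.8 to 135 CPM over 4 root libraries (median 119), and DFR had 236 to 402 CPM in leaf (median 312), against 491 to 777 CPM in root (median 752). For both genes the organs did not overlap by library totals, as for 63.6% of all genes tested, and the other 3 enzyme genes overlapped. With TMM over all libraries the organs overlapped for DFR as well, while ANS stayed separate. ANS was higher in leaf by a log2 value of 1.92 (SE 0.42, edgeR adjusted p = 0.000228), where 34.3% of genes tested were called higher. DFR was lower, at -0.76 (SE 0.34, edgeR adjusted p = 0.0464), where 36.3% were called lower and 70.6% in either direction. That call was lost with no count filter (adjusted p = 0.0504) and without any 1 of 8 single libraries (-0.80 to -0.57, adjusted p between 0.0547 and 0.189), namely the 3 drought leaves, the well-watered leaves of blocks 1 and 2, both drought roots and the well-watered root of block 2. With library totals it was -1.15 (adjusted p = 0.00219). The share of higher genes among all calls was 46.4% with TMM and 26.4% with library totals at the first sampling, and 48.6% with TMM and 34.8% with library totals in the next year.

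**Figure D3:**
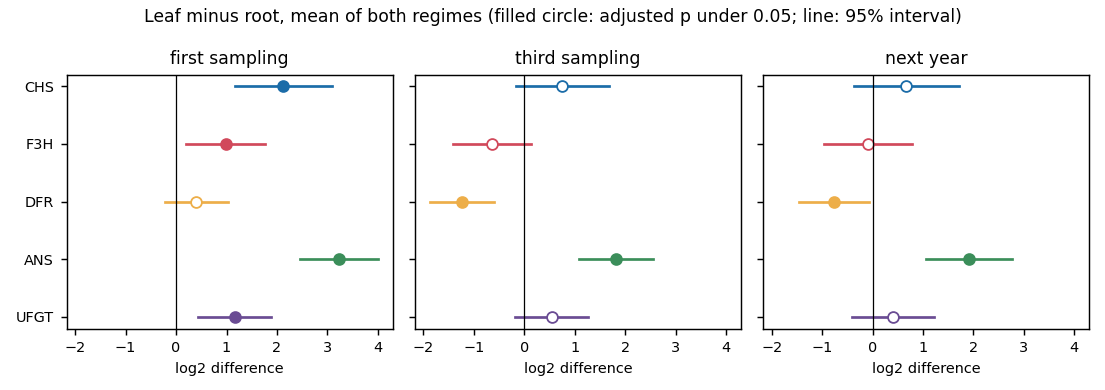
Log2 difference of leaf over root, averaged over both regimes (horizontal axis), for the 5 enzyme genes (rows) at each sampling; filled circles have an edgeR adjusted p under 0.05 and lines are 95% intervals. ANS lies right of 0 at each sampling (3.23, 1.82 and 1.92), and DFR lies at 0.40, -1.24 and -0.76.

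The difference between the organs itself changed between the third and the first sampling for 2 of the enzyme genes. This comparison was added after the separate values had been seen. DFR changed by -1.64 (SE 0.43, edgeR adjusted p = 0.0156) and F3H by -1.62 (SE 0.54, edgeR adjusted p = 0.0442), where 7.9% of genes tested were called lower and 14.4% in either direction. ANS (-1.40, SE 0.49, edgeR adjusted p = 0.0558) was not called by edgeR but was with a block term (-1.34, adjusted p = 0.0428), with DESeq2 (adjusted p = 0.0274), without the block 3 libraries of the third sampling (-1.45, adjusted p = 0.00691) and without any 1 of 5 single libraries (-1.60 to -1.56). These were the block 2 leaves of both regimes and the block 3 roots of both regimes at the third sampling, and the well-watered leaf of block 3 at the first. CHS (-1.38) and UFGT (-0.62) were not called. The F3H call was lost with library totals (-1.24, adjusted p = 0.0821), with no count filter (adjusted p = 0.0526), in a fit of these groups alone (-1.57, adjusted p = 0.0980) and without any 1 of 16 single libraries (-1.69 to -1.39, adjusted p between 0.0513 and 0.0912). These were the libraries of both samplings other than the block 1 and 2 leaves and block 3 roots of the third, and the well-watered block 3 leaf and block 1 root of the first. Library totals moved the share of higher genes among all calls to 90.8%, against 45.0% with TMM, and DFR was called with both (-1.25 with library totals, adjusted p = 0.0316).

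For MdMYB10, leaf was set against root by the summed counts. Over the leaf libraries of the first sampling 19 counts were assigned to it, against 7 over the root libraries, a ratio of 2.88 in CPM (exact binomial 95% interval 1.16 to 8.09, for counting error only). Over the third sampling there were 25 counts in leaf against 2 in root, a ratio of 14.0 (3.503 to 122), and in the next year 16 in leaf against 3 in root, a ratio of 3.43 (0.981 to 18.4). The interval of the next year reached below 1. With no count filter edgeR called the difference at the third sampling (adjusted p = 0.00524, DESeq2 adjusted p = 0.00311) and not at the first (adjusted p = 0.0924) or in the next year (adjusted p = 0.157). Of the 25 leaf counts of the third sampling, 12 lay in the well-watered leaf of block 2, and without that library the ratio was 8.4995 (1.92 to 77.6) and the edgeR adjusted p 0.0416. In this contrast, the third minus the first sampling was not called (adjusted p = 0.414), and leaf against root at the third sampling was the 1 of 17 comparisons in which the gene was called without the filter, a fit chosen after its counts were seen.

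The levels also followed the sowing block. At the third sampling, the block 3 libraries were the lowest for all 5 enzyme genes in both regimes and in both organs. This arrangement was noticed in the values and is given as a description, with no test. CHS had 192 CPM in the drought leaf and 134 CPM in the well-watered leaf of block 3, against 395 to 795 CPM in the 4 leaves of blocks 1 and 2. F3H had 83.4 CPM in the drought leaf and 73.1 CPM in the well-watered leaf of block 3, against 323 to 435 CPM in the others. For F3H the block 3 leaves were 4.80-fold lower, more than for any other of the 5 enzyme genes. ANS had 133 CPM in the drought leaf and 101 CPM in the well-watered leaf of block 3, against 251 to 364 CPM, DFR had 93.01 CPM in the drought and 99.02 CPM in the well-watered leaf, against 210.5 to 309.8 CPM, and UFGT had 22.9 CPM in the drought and 17.2 CPM in the well-watered leaf, against 60.9 to 87.0 CPM. The log2 differences of block 3 leaves over the other leaves ran from -2.26 for F3H to -1.33 for DFR, with a median of -1.81 beside 0.06 over all genes, and 13.2% of all leaf genes tested also had both block 3 libraries below the other 4.

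Roots of the third sampling had the same arrangement. CHS had 141 CPM in the drought root and 109.5 CPM in the well-watered root of block 3, against 293 to 419 CPM in the 4 roots of blocks 1 and 2. ANS had 28.2 CPM in the drought root and 28.9 CPM in the well-watered root of block 3, against 80.4 to 111 CPM. Here ANS was the enzyme gene with the largest gap, 3.49-fold. F3H (236 to 265 CPM in block 3, against 470.1 to 709 CPM), DFR (268 to 319 CPM, against 442 to 737 CPM) and UFGT (16.6 to 26.1 CPM, against 34.1 to 65.4 CPM) were low in block 3 as well. The log2 differences ran from -1.80 for ANS to -1.07 for DFR, with a median of -1.33 beside 0.03 over all genes, and 20% of root genes tested had both block 3 libraries below the other 4. In leaf and root together this held for 4.92% of the 30470 genes tested in both.

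At the first sampling 0 of 5 enzyme genes had both block 3 libraries below the other 4 in leaf (3.73% of all genes did) or in root (3.05%). In leaf the log2 differences of block 3 over the other blocks were nevertheless below 0 for 4 of 5, at -1.14 for CHS, -0.44 for F3H, -0.45 for DFR and -0.17 for ANS, and 0.11 for UFGT, with a median of -0.44 beside 0.21 over all genes. The well-watered block 3 leaf was the lowest of the 6 libraries for these 4 genes. In root the 5 differences were all above 0, from 0.23 to 0.46. In leaves of the next year 0 of 5 were low in block 3 (15.2%). In roots of the next year 4 of 5 had both block 3 libraries below the 2 others by library totals (27.6%). Their log2 values ran from -0.56 for UFGT to -0.38 for DFR. With TMM over all libraries only UFGT kept this order in those roots. Per the labels a block is a separate sowing, a week apart from the next, and what else set the block 3 libraries of the third sampling apart was not tested. With the block 3 libraries of the third sampling left out, no enzyme gene became called in a drought comparison.

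**Figure D4:**
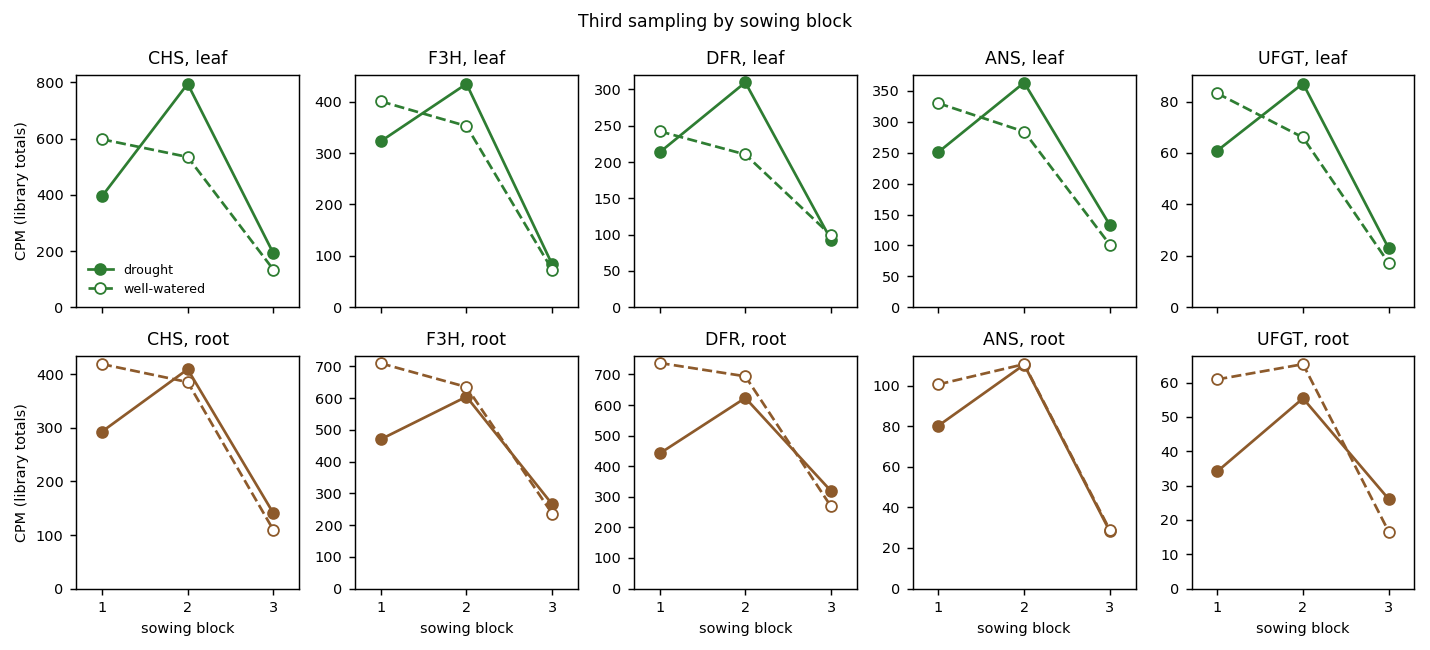
Level at the third sampling in CPM (vertical axis, from 0) by sowing block (horizontal axis), for each enzyme gene in leaf (upper row) and root (lower row); filled circles with full lines are drought and open circles with broken lines well-watered. Block 3 is the lowest point of every line, for example at 192 CPM in the drought leaf and 134 CPM in the well-watered leaf for CHS.

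The 5 enzyme genes varied together from library to library. Over the 18 leaf libraries the 10 pairs of enzyme genes had Pearson correlations of log2 CPM from 0.841 (CHS with UFGT) to 0.975 (F3H with ANS), with a median of 0.921 and Spearman correlations from 0.686 to 0.946. Over the 16 root libraries they ran from 0.806 (F3H with UFGT) to 0.961 (CHS with DFR), with a median of 0.921 and Spearman correlations from 0.706 to 0.974. These are descriptions, since the libraries share blocks, samplings and scaling. Leaving out the 2 libraries farthest from the median gave 0.559 to 0.947 in leaf and 0.585 to 0.926 in root. In leaf these were the block 3 libraries of the third sampling for every pair. In root they were so for all pairs but DFR with ANS and DFR with UFGT. With group means subtracted, so that regimes and samplings no longer contribute, the medians were 0.949 in leaf and 0.952 in root. With the block 3 libraries of the third sampling left out, which is largely the same omission as that of the farthest 2, the medians were 0.829 in leaf and 0.831 in root. Leaving out 2 more libraries after that took the lowest pair to 0.279 in leaf and 0.642 in root. Within a sowing block the medians over 6 leaf libraries were 0.918, 0.762 and 0.954 in blocks 1, 2 and 3. In root the median was 0.967 over the 6 libraries of block 3, which include the low ones of the third sampling. It was lower in root blocks 1 and 2, at 0.854 and 0.894, over only 5 libraries each.

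Ranked by correlation with the mean of the other 4 enzyme genes among 32303 genes, the enzyme genes stood at place 18 for CHS, 3 for F3H, 13 for DFR, 3 for ANS and 15 for UFGT in leaf. In root, among 33537 genes, DFR stood at place 5, CHS at 6, ANS at 10, F3H at 94 and UFGT at 144. The 2 other genes whose pattern was most like the mean of the 5 enzyme genes were MD04G1003000 (r = 0.990) and MD07G1233400 (r = 0.987) over the 18 leaf libraries, and MD04G1003000 (r = 0.985) and MD13G1285100 (r = 0.981) over the 16 root libraries. MD04G1003000 had 602 to 804 CPM in the block 3 leaves of the third sampling, against 1631 to 2455 CPM in the other leaves of that sampling. It had 414 to 419.8 CPM in the block 3 roots, against 895 to 1496 CPM in the others. The table does not name these genes, and no likeness to MdMYB10 is given because its counts were too low.

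**Figure D5:**
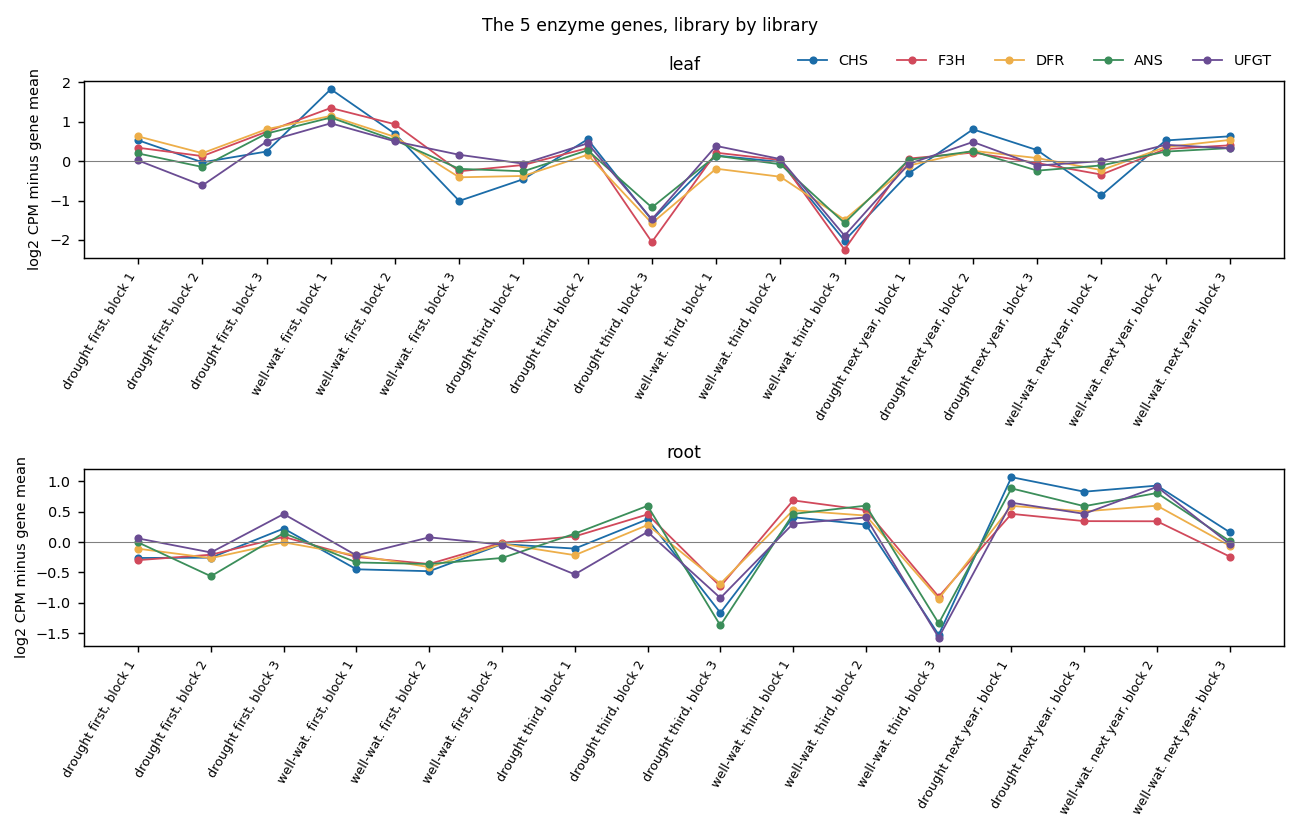
Log2 CPM of the 5 enzyme genes minus each gene's mean over the libraries of its organ (vertical axis), library by library (horizontal axis, by sampling, regime and sowing block) in leaf (upper panel) and root (lower panel), with lines joining the points of a gene. The lines keep close to each other and dip together at the block 3 libraries of the third sampling, and the median correlation of the pairs is 0.921 in both organs.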

How the data were processed

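Per the labels' protocols, stranded libraries made from total RNA of leaves and roots were sequenced as pairs of 100-base reads. The submitters' processing notes name FastQC, Salmon, DESeq and DESeq2, without versions. Which genome build and annotation were used is not given in the sources used here. Deposited by the authors was 1 table of estimated counts per gene identifier, whose values are whole numbers and were used without rounding. Of its 52311 identifiers 8708 had no count in any of the 34 libraries, and 0 were found in the RefSeq gene table.

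Differences were fitted over the whole table with edgeR 4.0.16 (limma 3.58.1, R 4.3.3), with TMM scaling, the filterByExpr filter, robust glmQLFit and glmQLFTest. Fits were made over the 18 leaf, the 16 root or all 34 libraries, with group as the factor, and Benjamini-Hochberg adjustment ran over all genes tested. A gene was called at an adjusted p under 0.05. The procedure was tested on simulated data. Tables and figures used Python 3.11.15 with pandas 2.3.3, scipy 1.17.1 and matplotlib 3.10.9.

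Levels are counts scaled to a library total of 1000000 (CPM). Totals ran from 25974815 to 68239819, and intervals on counts cover counting error only. A prior count of 2 was added before taking log2 CPM for correlations. The genes named are the 6 given by identifier and, per organ, the 2 other genes most correlated with the mean of the 5 enzyme genes. The 6 genes and the comparisons were chosen with earlier results of these data known.

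The alternatives were DESeq2 1.42.0, RLE scaling, no count filter, a filter of at least 10 counts in at least 50% of the libraries, only the groups compared, the sowing block as a term, and each library left out in turn. Library totals as scaling, the block 3 libraries of the third sampling left out, leaf against root at the third minus the first sampling, and the unfiltered fits of MdMYB10 were chosen after seeing the data. Because the labels make the replicate number a shared sowing, same-numbered libraries are paired. Their deviations from the group means correlated at 0.166 to 0.641 across genes, except in roots of the first sampling, where the correlations were -0.71 to -0.26. The main fits take no account of this pairing. A block term shared by all samplings does not cover a block shift at 1 sampling only. No 2 libraries of a group agreed within sampling noise, the lowest chi-square per gene being 25.9.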

Additional observations from a re-analysis of the deposited data

Results flagged for a closer look

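The difference of leaf over root changed between the third and the first sampling for 2 enzyme genes, by a test of that change itself with edgeR's quasi-likelihood test. It moved by -1.62 on the log2 scale for F3H (SE 0.54, adjusted p = 0.0442) and by -1.64 for DFR (SE 0.43, adjusted p = 0.0156). Leaf over root was -0.64 at the third and 0.98 at the first sampling for F3H, and -1.24 at the third and 0.40 at the first sampling for DFR. The comparison was added after the separate values had been seen. The F3H call was lost in 19 of 32 alternatives, among them library totals (adjusted p = 0.0821), no count filter (0.0526), the groups compared alone (0.0980) and 16 omissions of 1 library, while the DFR call was kept in all 32 (adjusted p up to 0.0445). The block 3 libraries of the third sampling, which were low in both organs, take part in both values.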

How the results depend on the processing

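Of the 11 called differences of the enzyme genes, none changed direction under the alternatives run. The number of the 5 enzyme genes called by edgeR moved as follows. With DESeq2 it was 1 for the third against the first sampling both in well-watered and in drought leaves, against 0 in each. For leaf in the next year against the third sampling it was 0 with library totals, with no count filter or without the block 3 libraries of the third sampling, against 1. For leaf against root it was 2 with library totals against 4 at the first sampling, and 1 with no count filter against 2 in the next year. For the third minus the first sampling of leaf against root it was 1 with library totals, with no count filter or with the groups compared alone, and 3 with DESeq2, the sowing block or without the block 3 libraries of the third sampling, against 2. For leaf against root at the third sampling it was 3 without those block 3 libraries, against 2, and MdMYB10 was called in addition with DESeq2 and with no count filter. Leaving out 1 library at a time gave 0 to 2 for well-watered leaves between these samplings, 0 to 1 for leaves of the next year against the third sampling, 3 to 4 for leaf against root at the first sampling, 2 to 3 at the third and 1 to 2 in the next year, and 1 to 3 for the third minus the first sampling of leaf against root. The median correlation of the enzyme pairs was 0.829 in leaf and 0.831 in root without the block 3 libraries of the third sampling. Of 72 group means, 62 moved by less than 1 SD with TMM-scaled CPM. The other 10 include MdMYB10 in well-watered roots of the third sampling, which had an SD of 0 and a mean of 0 with either scaling and so did not move.

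With the sowing block as a term, the pairing added 1 call, ANS in the third minus the first sampling of leaf against root (-1.34, adjusted p = 0.0428), and changed no other call of an enzyme gene. The block turned the direction of DFR, which was not called, to 0.0079 after the first drought in leaf, -0.0084 after the third, -0.016 for the third minus the first drought effect and 0.0077 for the first drought effect in leaf minus that in root.

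Other turned directions were all of differences that were not called. With library totals, the third drought in leaf gave 0.13 for CHS, 0.026 for F3H, 0.064 for ANS and 0.038 for UFGT, the first drought in root gave 0.068 for F3H and 0.090 for DFR, and leaf against root at the first sampling gave -0.15 for DFR. DFR after the third drought in leaf was -0.0045 with DESeq2 and -0.0048 with RLE scaling. Without the block 3 libraries of the third sampling, root gave 0.18 for UFGT in the third against the first sampling and -0.17 for F3H in the next year against the third. Leaving out 1 library at a time turned these directions, with the lowest and highest values given. For the first drought in leaf the values ran from -1.23 to 0.17 for CHS, -0.47 to 0.37 for DFR and -0.69 to 0.074 for ANS. The third drought in leaf gave -0.70 to 0.37 for CHS, -0.61 to 0.29 for F3H, -0.42 to 0.35 for DFR, -0.48 to 0.24 for ANS and -0.56 to 0.26 for UFGT. For the next-year regimes in leaf the values ran from -0.25 to 0.35 for CHS and -0.28 to 0.053 for F3H. The third minus the first drought effect in leaf gave -0.22 to 1.19 for CHS, -0.13 to 0.78 for F3H, -0.37 to 0.47 for DFR and -0.17 to 0.61 for ANS. For the first drought in root the values ran from -0.11 to 0.21 for CHS, -0.21 to 0.042 for F3H, -0.16 to 0.011 for DFR, -0.11 to 0.24 for ANS and -0.16 to 0.19 for UFGT. The third drought in root gave -0.51 to 0.24 for CHS, -0.58 to 0.062 for F3H, -0.58 to 0.28 for ANS and -0.71 to 0.028 for UFGT. For the next-year regimes in root the values ran from -0.19 to 0.79 for UFGT. The third against the first sampling in root gave -0.016 to 0.39 for CHS and -0.34 to 0.058 for UFGT. For the next year against the third sampling in root the values ran from -0.027 to 0.30 for F3H. Leaf against root in the next year gave -0.22 to 0.074 for F3H. For the first drought effect in leaf minus that in root the values ran from -1.37 to 0.033 for CHS and -0.46 to 0.38 for DFR. The cause of these changes was not tested.

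Over all genes, the number called by edgeR differed by more than 1.5 times under some settings. After the first drought in leaf it was 3812, against 1930 with library totals and 1182 with the groups compared alone. For the third minus the first drought effect in leaf it was 1862, against 3656 with DESeq2, 802 with library totals and 234 with the groups alone. For the third against the first sampling it was 4876 in well-watered leaves, against 3128 with library totals and 5 with the groups alone, and 5349 in drought leaves, against 1838 with the groups alone. In root it was 3 for the third against the first sampling, against 638 with DESeq2, 171 without the block 3 libraries, 1 with library totals and 0 with the groups alone, the sowing block or RLE scaling. For the next year against the third sampling in root it was 804, against 2584 with DESeq2, 377 without the block 3 libraries and 244 with the groups alone. For the first drought effect in leaf minus that in root it was 56, against 444 with DESeq2, 110 with the sowing block, 35 with the groups alone, 29 with RLE scaling and 19 with library totals. For the third minus the first sampling of leaf against root it was 5123, against 3020 with the groups alone. Leaving out 1 library moved these counts by more than 1.5 times as well, with the libraries named. The first drought in leaf gave 1461 to 3903 (both leaves of block 1 and the drought leaf of block 2). Its change at the third sampling gave 603 to 2458 (the same libraries and both block 2 leaves of the third sampling). The third against the first sampling gave 894 to 6227 in well-watered and 2304 to 5159 in drought leaves (blocks 1 and 2 of the first and blocks 2 and 3 of the third sampling in each), and 0 to 25 in root (each library except the well-watered root of block 2 at the third sampling). The next year against the third sampling in root gave 194 to 809 (each except the drought root of block 2 at the third sampling). The first drought effect in leaf minus that in root gave 11 to 116 (all leaves except the drought leaf of block 3, the drought roots of blocks 1 and 3 and the well-watered root of block 3). The third minus the first sampling of leaf against root gave 3291 to 6657 (both block 2 leaves of the first sampling). For the next-year regimes in leaf it was 1 without the drought leaf of block 1. The background shares in the text move with these counts. Depth limits MdMYB10 most, with 12 counts over all root libraries.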
